A study of Mus musculus with 60 samples.

Results

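The chemokine receptors of regulatory T (Treg) cells were followed as 9 genes chosen by name, Ccr2, Ccr4, Ccr6, Ccr7, Ccr8, Ccr9, Cxcr3, Cxcr4 and Cxcr6, out of 55011 genes in the count table. They were read in the 8 sorted Treg libraries of a mouse study of 60 RNA sequencing libraries; the other 52 came from whole fat tissue and were not compared here. All 8 were sorted from untreated wild-type males of the B6.Foxp3.Thy1.1 reporter strain at 8 weeks of age, in 3 groups: brown adipose tissue (BAT, 2 libraries), fat under the skin (subcutaneous, SAT, 3 libraries) and spleen (3 libraries). Thy1.1 is a surface protein that this strain makes wherever Foxp3, the defining transcription factor of Treg cells, is active, and the gate was live CD45+Tcrb+CD4+Thy1.1+. Any cell that expresses Foxp3 carries the reporter, so thymus-derived and peripherally induced Treg cells fall into the same libraries. The labels do not say whether replicates came from separate animals or pools, so the spread behind each p-value is that of these samples and may be technical.

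Chemokine receptors are membrane proteins that couple to inhibitory G proteins and steer a cell along gradients of secreted chemokines. A T cell that keeps Ccr7 recirculates through lymphoid organs, where stromal cells make its ligands. Receptors such as Ccr2, Ccr4, Ccr8, Cxcr3 and Cxcr6 are known from effector T cells and from Treg cells that live in skin, lung, gut and fat.

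The total was 4662976 to 5721368 counts per library, and every one of the 9 receptors passed the filter on low counts. Foxp3 stood between 373 and 442 CPM (counts scaled to a common effective library size) in the fat libraries and between 354 and 430 in spleen. The summed level of 8 Treg marker genes was 3996 to 4379 CPM in fat and 3926 to 4022 in spleen, and all 8 were detected in both. Of these, Ctla4 (log2 fold change 1.25 ± 0.13, edgeR adjusted p = 6.83e-05) and Ikzf2 (0.42 ± 0.09, edgeR adjusted p = 0.0106) were higher in fat, and Il2ra was lower (-0.54 ± 0.10, edgeR adjusted p = 0.00411). The summed level of 10 adipocyte and stroma genes was 131 to 209 CPM in fat and 229 to 324 in spleen. Nearly all of it was Pecam1 (123 to 197 and 221 to 321), which lymphocytes also express. Adipoq, which defines adipocytes, was at 0 to 1.42 CPM in fat and 0.184 to 0.678 in spleen. Of the 4 tested 0 were called higher in fat and 2, Pecam1 and Col1a1, lower. The means of Fabp4 were 0.314 CPM in BAT, 1.82 in SAT and 0.0612 in spleen. Those of Cd36 were 1.42, 3.59 and 0.629, and neither gene was called. Of 12 immediate-early and stress genes, such as Fos, Jun and Hspa1a, 12 were higher in fat than in spleen. Their summed level was 9275 and 8404 CPM in BAT, 6683, 11717 and 11399 in SAT and 860, 808 and 879 in spleen. These genes move with the fat against spleen comparison throughout, and their part in the receptor results was not tested.

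All 9 genes were located on mm10 with GENCODE M21. Of these, 5 lie on chromosome 9, namely Ccr4 (114490316 to 114504916), Ccr8 (120092114 to 120094906), Ccr9 (123678439 to 123784330), Cxcr6 (123806475 to 123811760) and Ccr2 (124101950 to 124113557). Ccr9, Cxcr6 and Ccr2 are neighbours within 435119 bases. The others are Ccr6 on chromosome 17 (8236043 to 8257141), Ccr7 on chromosome 11 (99144196 to 99155077), Cxcr3 on chromosome X (101731535 to 101734269) and Cxcr4 on chromosome 1 (128588199 to 128592293). Cxcr6 lies inside Fyco1 on the opposite strand and shares 0 exon bases with it. Ccr9 shares 18.8% of its exon bases with an antisense transcript, AC165425.1, and the strand setting of the counting is not given in the sources used here. Of the 50-base words of the Ccr2 transcripts 1.91% also occur in another gene, and the share was 0.465% for Ccr4 and 2.13% for Ccr9. For the other 6 receptors no such word was shared.

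RefSeq promoter windows (build GRCm38.p6, the assembly of mm10) were matched for 8 of the 9 receptors, with Ccr7 the exception. The 250 bases before each start were searched on both strands for TGANTCA (the AP-1 site), TCACAC (a T-box core), TGTTTAC (forkhead) and CCACCC (Krüppel-like factors). No pair of these overlapped in the windows printed. They are shown for 4 receptors that were higher in fat Treg cells, cut where an exon of the gene itself begins, with motif matches in capitals. They are Ccr4 at chr9:114496563-114496794 on the minus strand, Ccr8 at chr9:120091883-120092113 on the plus strand, Cxcr6 at chr9:123806227-123806474 on the plus strand and Cxcr4 at chr1:128592300-128592549 on the minus strand.
Ccr4: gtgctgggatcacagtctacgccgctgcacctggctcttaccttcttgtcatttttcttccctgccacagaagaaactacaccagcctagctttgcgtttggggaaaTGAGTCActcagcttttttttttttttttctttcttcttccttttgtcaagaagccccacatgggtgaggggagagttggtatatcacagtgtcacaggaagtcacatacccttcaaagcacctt
Ccr8: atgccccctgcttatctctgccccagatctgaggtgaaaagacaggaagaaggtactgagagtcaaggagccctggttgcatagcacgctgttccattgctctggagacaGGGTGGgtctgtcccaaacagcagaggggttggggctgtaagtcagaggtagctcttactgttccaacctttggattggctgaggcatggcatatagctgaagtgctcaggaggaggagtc
Cxcr6: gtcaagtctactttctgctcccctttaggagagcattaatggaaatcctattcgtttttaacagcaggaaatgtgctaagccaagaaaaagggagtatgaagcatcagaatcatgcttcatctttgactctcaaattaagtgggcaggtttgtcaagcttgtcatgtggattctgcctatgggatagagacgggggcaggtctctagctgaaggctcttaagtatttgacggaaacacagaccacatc
Cxcr4: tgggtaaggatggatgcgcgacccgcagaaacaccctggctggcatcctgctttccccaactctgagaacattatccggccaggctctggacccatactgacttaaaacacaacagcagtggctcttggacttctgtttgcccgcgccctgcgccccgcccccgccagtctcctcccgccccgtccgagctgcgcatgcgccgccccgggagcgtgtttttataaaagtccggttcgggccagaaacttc
The Ccr4 window held 1 AP-1 match, TGAGTCA, 143 bases before the RefSeq start, which lies within longer Ccr4 transcripts. The Ccr8 window held 1 Krüppel-like factor match on the minus strand, read as GGGTGG, 140 bases before its start. Among 32851 RefSeq promoter windows of the same length, 6.75% held the AP-1 motif, 12.3% the T-box core, 3.17% the forkhead motif and 28.1% the Krüppel-like factor motif. Matches outside these 4 windows were a CCACCC 74 bases before the Ccr9 start and a TCACAC 234 bases before the Cxcr3 start. The Cxcr6 and Cxcr4 windows held none of these letters, which says nothing about the factors.

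Treg cells of fat carried more transcript of 6 of the 9 receptors than those of spleen and less of 1, by edgeR's quasi-likelihood test at an adjusted p under 0.05. Over all 13847 genes tested, 7.29% were called higher and 5.27% lower in this comparison, 12.6% in either direction. The median log2 fold change was 1.60 over the 9 receptors and -0.01 over all genes. Ccr2 and Cxcr6 had the widest ratios of mean CPM, 12.9 and 11.5, and Cxcr4, Ccr8, Cxcr3 and Ccr4 followed with 3.76, 3.47, 3.11 and 2.66. Ccr7 was the receptor called lower, with a ratio of 0.456. Fat and spleen values overlapped for Ccr6 and for no other receptor. How common such separation was over all genes was not counted, so it is given as description only. In these bulk libraries a larger share of cells with a receptor and more RNA per cell cannot be told apart.

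**Figure D1:**
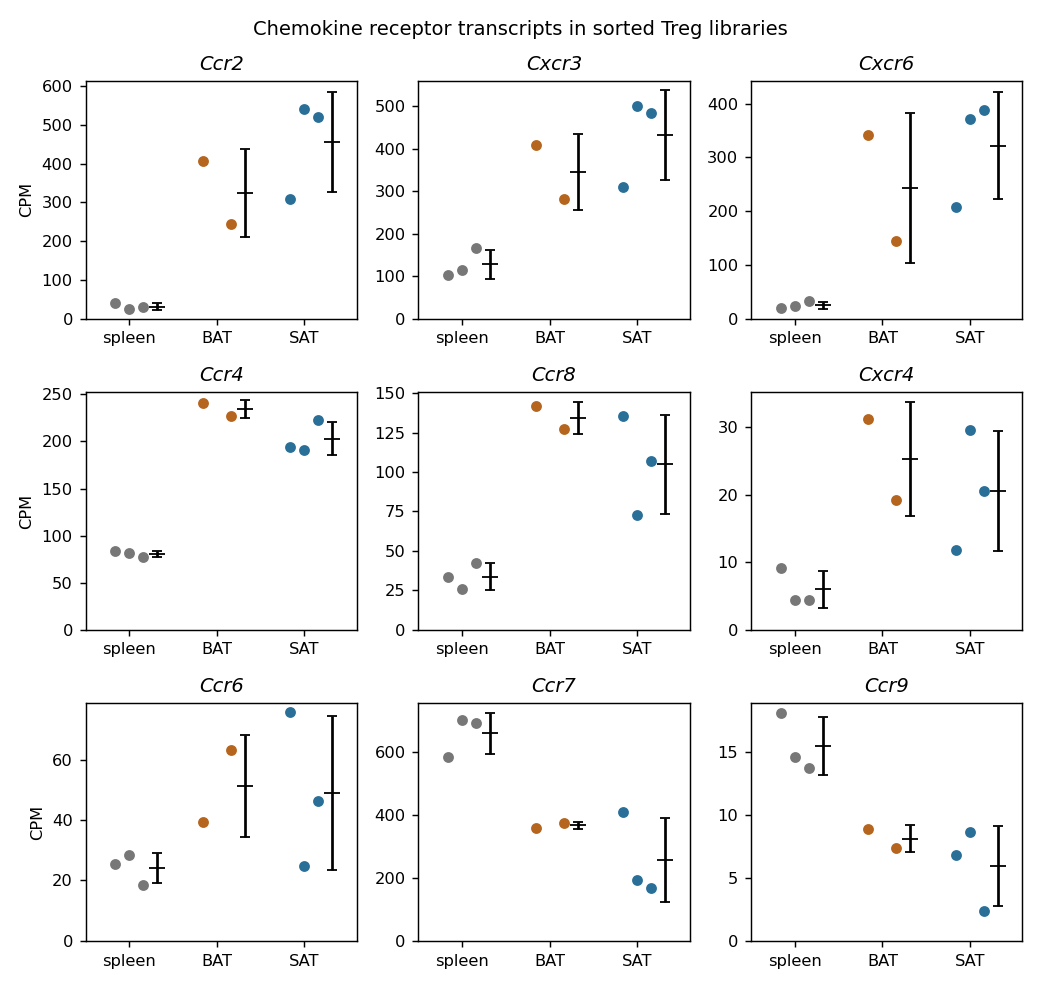
CPM of the 9 receptors in each sorted Treg library (points) with the group mean and SD (bars) for spleen (n = 3), BAT (n = 2) and SAT (n = 3), on linear axes that start at 0. Ccr2 sits between 23.7 and 39.5 CPM in spleen and between 245 and 541 in fat, while Ccr7 sits above every fat library in spleen.

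The receptors of type 1 inflammation came first. Ccr2, the receptor for the monocyte attractant Ccl2, stood at 406 and 245 CPM in the BAT libraries, at 309, 541 and 521 in SAT and at 39.5, 23.7 and 30.5 in spleen. Every fat library was above every spleen library, and within fat BAT 2 and SAT 1 were the lowest. Ccr2 rose by 3.62 ± 0.26 on the log2 scale (SE, edgeR adjusted p = 4.76e-06) in fat over spleen, by 3.38 ± 0.28 in BAT (edgeR adjusted p = 2.11e-05) and by 3.87 ± 0.27 in SAT (edgeR adjusted p = 4.53e-06). Monocytes and macrophages are the best known carriers of Ccr2. The summed level of 12 macrophage and monocyte genes was 24.6 to 45.9 CPM in the fat libraries and 70.4 to 179 in spleen. Of the 10 of them tested 0 were higher and 5 lower in fat over spleen, and 1 was higher and 5 lower in SAT over spleen. The gene higher in SAT was Ly6c2, a marker of the inflammatory monocytes that carry Ccr2, at 5.51 ± 0.51 CPM in BAT, 17.2 ± 7.28 in SAT and 3.42 ± 3.35 in spleen (2.33 ± 0.65, edgeR adjusted p = 0.0435). Its part in the SAT value of Ccr2 was not tested. Csf1r, the receptor that defines the lineage, was at 0 to 4.25 CPM in fat and 16.3 to 34.2 in spleen, and C1qc had no count in any fat library. Slc40a1 had the largest spleen mean of the 12, 32.3 CPM, against 0.101 in BAT and 0.143 in SAT. Lyz2 and Cd68 were not called, at 12.5 and 7.80 CPM in BAT, 5.39 and 5.94 in SAT and 8.26 and 7.77 in spleen. The part of monocytes and macrophages in the Ccr2 values was not tested.

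Cxcr3, the receptor for the interferon-induced chemokines Cxcl9, Cxcl10 and Cxcl11, stood at 408 and 282 CPM in BAT, at 310, 499 and 485 in SAT and at 103, 114 and 166 in spleen. Fat and spleen values did not overlap, and the order of the 5 fat libraries was the same as for Ccr2. The log2 fold change of Cxcr3 was 1.60 ± 0.20 in fat over spleen (edgeR adjusted p = 0.000325), 1.44 ± 0.24 in BAT (edgeR adjusted p = 0.00281) and 1.76 ± 0.22 in SAT (edgeR adjusted p = 0.000321). Without BAT 1 the Cxcr3 difference between BAT and spleen no longer passed (edgeR adjusted p = 0.0574). Cxcr6, which binds the membrane-bound chemokine Cxcl16, stood at 342 and 145 CPM in BAT, at 207, 371 and 388 in SAT and at 20.2, 22.9 and 32.7 in spleen. Again BAT 2 and SAT 1 were the lowest fat libraries, and both remained far above spleen. Cxcr6 rose by 3.47 ± 0.34 in fat (edgeR adjusted p = 0.00011), by 3.27 ± 0.37 in BAT (edgeR adjusted p = 0.000402) and by 3.67 ± 0.36 in SAT (edgeR adjusted p = 0.000116). Summed markers of CD8 T cells and NK cells, which also carry Cxcr3 and Cxcr6, were at 24.6 to 69.6 CPM in fat and 30.3 to 61.7 in spleen. Of the 5 tested 0 were called, and Ncr1, which defines NK cells, had counts only in SAT 1 (1.71 CPM). Also below the filter, Klrd1 was at 1.79 to 3.64 CPM in BAT, 0.186 to 1.71 in SAT and 0 to 0.169 in spleen. Gzma was at 0 CPM in BAT, 0.930 to 6.85 in SAT and 0 to 0.169 in spleen. Klrb1c and Eomes went the other way, with means of 2.91 and 1.57 CPM in spleen, 1.06 and 0.356 in SAT and 0 in BAT. The part of such cells in the Cxcr3 and Cxcr6 values was not tested.

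Ccr4 and Ccr8 are receptors of skin-homing T cells and of Treg cells in barrier tissues. Ccr4, the receptor for Ccl17 and Ccl22, stood at 241 and 227 CPM in BAT, at 195, 191 and 223 in SAT and at 83.7, 81.4 and 77.5 in spleen. It was the most even receptor of the 9 in fat, with a highest to lowest ratio of 1.26 among the 5 libraries and of 1.08 in spleen. The log2 fold change of Ccr4 was 1.43 ± 0.11 in fat (edgeR adjusted p = 3.75e-06), 1.53 ± 0.12 in BAT (edgeR adjusted p = 9.93e-06) and 1.33 ± 0.11 in SAT (edgeR adjusted p = 1.58e-05). Ccr8, the receptor for Ccl1 and mouse Ccl8, stood at 142 and 127 CPM in BAT, at 135, 72.8 and 107 in SAT and at 33.2, 25.6 and 42.2 in spleen. The lowest fat library, SAT 2, was still above the highest spleen library. Ccr8 rose by 1.82 ± 0.22 in fat (edgeR adjusted p = 0.000186), by 2.00 ± 0.25 in BAT (edgeR adjusted p = 0.000364) and by 1.64 ± 0.23 in SAT (edgeR adjusted p = 0.000813).

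Cxcr4, the receptor for the stromal chemokine Cxcl12, rested on 24 to 154 counts per library. Its values were 31.2 and 19.2 CPM in BAT, 11.8, 29.5 and 20.5 in SAT and 9.15, 4.33 and 4.41 in spleen. Fat and spleen values did not overlap, but SAT 1 and spleen 1 lay close together. Cxcr4 rose by 1.93 ± 0.40 in fat (edgeR adjusted p = 0.00795), by 2.07 ± 0.46 in BAT (edgeR adjusted p = 0.015) and by 1.78 ± 0.43 in SAT (edgeR adjusted p = 0.0214). The call in fat did not pass without spleen 2 (edgeR adjusted p = 0.0523). In BAT it did not pass without BAT 1 (0.0866), spleen 2 (0.069) or spleen 3 (0.0568), and in SAT not without SAT 2 (0.116), SAT 3 (0.0713), spleen 2 (0.104) or spleen 3 (0.0888), as edgeR adjusted p.

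Ccr6, the receptor for Ccl20 and a marker of Th17-like T cells, was the receptor whose fat and spleen values overlapped. It stood at 39.5 and 63.3 CPM in BAT, at 75.8, 24.9 and 46.1 in SAT and at 25.6, 28.4 and 18.6 in spleen. SAT 2 lay within the spleen values, and SAT 1 and BAT 2 were the highest. The log2 fold change of Ccr6 was 1.05 ± 0.32 in fat (edgeR adjusted p = 0.0516), 1.09 ± 0.38 in BAT (edgeR adjusted p = 0.1) and 1.02 ± 0.35 in SAT (edgeR adjusted p = 0.102). Without SAT 2 (edgeR adjusted p = 0.016) or without BAT 1 (edgeR adjusted p = 0.0436) the Ccr6 difference between fat and spleen passed. Innate type 2 and gamma delta lymphocytes of fat can carry Ccr6 and Cxcr6. The summed level of 6 of their genes was 584 to 1012 CPM in fat and 272 to 322 in spleen. Of the 5 tested 1 was higher, Klrg1, which Treg cells also express, and the gamma delta receptor gene Trdc had a log2 fold change of -1.02 ± 0.51 (edgeR adjusted p = 0.219).

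The lymphoid and gut receptors came last. Ccr7, which binds Ccl19 and Ccl21 and directs cells into lymph nodes and the splenic T cell zone, stood at 584, 701 and 693 CPM in spleen, at 359 and 374 in BAT and at 409, 193 and 168 in SAT. SAT 1 was close to the BAT libraries, while SAT 2 and SAT 3 were lower, and no fat library reached spleen. Ccr7 fell by 1.10 ± 0.24 on the log2 scale in fat (edgeR adjusted p = 0.0156) and by 1.36 ± 0.28 in SAT (edgeR adjusted p = 0.014). In BAT its log2 fold change was -0.85 ± 0.31 (edgeR adjusted p = 0.128). The Ccr7 call in fat was lost without BAT 1 (edgeR adjusted p = 0.128) or BAT 2 (edgeR adjusted p = 0.117), and the call in SAT was lost without BAT 1 (0.0864) or BAT 2 (0.0885). Without SAT 1 the difference in BAT passed (edgeR adjusted p = 0.000616). Fitted with only the groups compared, Ccr7 passed in BAT (edgeR adjusted p = 0.00146) and not in SAT (edgeR adjusted p = 0.0642). B cells and migrating dendritic cells also carry Ccr7. Of 8 B cell genes tested 0 were called in fat or BAT over spleen, and 1, Ighm, was lower in SAT (log2 fold change -0.39 ± 0.10, edgeR adjusted p = 0.0381). The part of B cells in the Ccr7 values was not tested. Their summed level was 804 to 1139 CPM in fat and 1205 to 1257 in spleen, most of it Ighm (753 to 1031 and 1098 to 1170). The summed level of 8 dendritic cell genes was 11.5 to 16.3 CPM in spleen, 51.8 and 12.1 in BAT and 12.6, 8.65 and 54.3 in SAT.

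Ccr9, the receptor for Ccl25 of small intestine and thymus, was barely detected, with 13 to 107 counts per library. It stood at 18.1, 14.6 and 13.8 CPM in spleen, at 8.90 and 7.38 in BAT and at 6.85, 8.65 and 2.42 in SAT. All fat values were below all spleen values. The log2 fold change of Ccr9 was -1.15 ± 0.39 in fat (edgeR adjusted p = 0.0734), -0.93 ± 0.50 in BAT (edgeR adjusted p = 0.283) and -1.38 ± 0.45 in SAT (edgeR adjusted p = 0.0837), none of which passed.

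**Figure D2:**
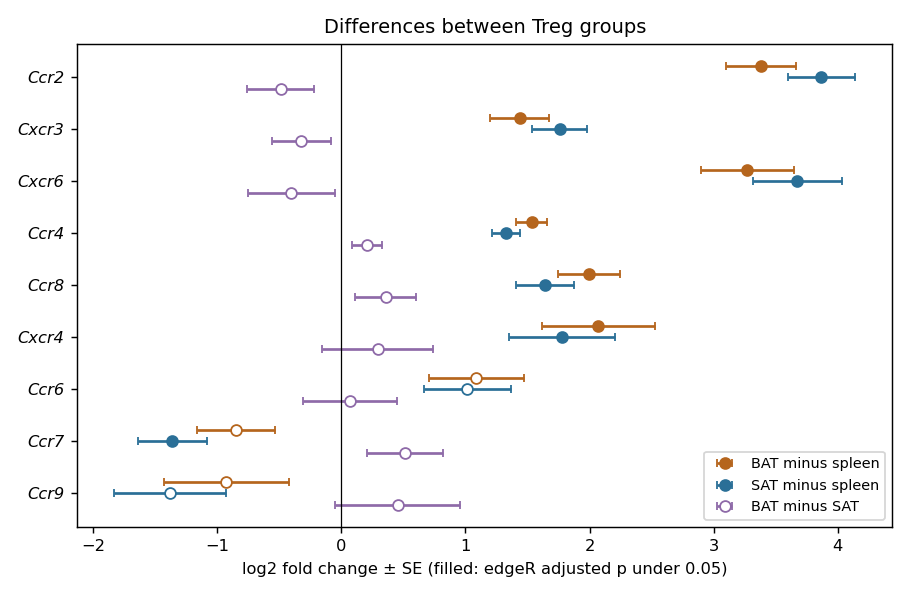
Log2 fold change with SE of each receptor for BAT minus spleen, SAT minus spleen and BAT minus SAT, from 1 edgeR fit of the 8 Treg libraries; filled points passed an adjusted p of 0.05. In the contrasts with spleen Ccr2 lies at 3.38 and 3.87 and Cxcr6 at 3.27 and 3.67, and all 9 points of BAT minus SAT are open.

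Each fat depot was then set against spleen alone, and these comparisons share the same 3 spleen libraries. In BAT 6 of the 9 receptors were higher and 0 lower, where 5.57% of all genes tested were called higher and 3.21% lower (8.77% in either direction). In SAT 6 were higher and 1 lower, against 5.56% and 2.78% of all genes (8.34% in either direction). The median log2 fold change of the receptors was 1.53 in BAT and 1.64 in SAT, and that of all genes was -0.00 and 0.00.

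Between BAT and SAT Treg cells 0 of the 9 receptors were called, and 0% of all genes tested passed. At an unadjusted p under 0.05 edgeR gave 1231 genes, 0 of them receptors, and DESeq2 called 90 genes after adjustment, also 0 of them receptors. The log2 fold change of BAT over SAT was -0.49 ± 0.27 for Ccr2 (edgeR adjusted p = 0.639), the largest of the 9 with a negative sign, followed by Cxcr6 (-0.40 ± 0.35) and Cxcr3 (-0.32 ± 0.24). It was 0.51 ± 0.30 for Ccr7 (edgeR adjusted p = 0.685), 0.45 ± 0.50 for Ccr9, 0.36 ± 0.25 for Ccr8, 0.29 ± 0.44 for Cxcr4, 0.21 ± 0.12 for Ccr4 and 0.07 ± 0.38 for Ccr6. Without SAT 1 the Ccr7 difference was 1.02 ± 0.12 (edgeR adjusted p = 0.0137). A p that misses the threshold with 2 against 3 libraries does not show that the depots were alike.

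The make-up of the receptor pool was described with levels per length, that is counts per kilobase of exon scaled to a common total over all genes, which allow receptors to be compared within a library. In spleen Ccr7 led with 960 ± 109 (SD, n = 3), and Cxcr3 was next with 213 ± 62.4. Ccr8 (82.9 ± 22.4) and Ccr4 (75.2 ± 1.20) had overlapping ranges per length, as did Cxcr6 (37.8 ± 10.9) and Ccr6 (29.9 ± 5.63), and Ccr2 (13.3 ± 3.29) and Cxcr4 (9.45 ± 4.22). Ccr9 was lowest in spleen at a level per length of 4.34 ± 0.57.

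In BAT Cxcr3 (476 ± 129, level per length, n = 2) and Ccr7 (442 ± 6.59) overlapped at the top. Cxcr6 (302 ± 176) and Ccr8 (273 ± 24.2) also overlapped, and below them came Ccr4 (181, with 188 and 174 in its libraries) and Ccr2 (115 ± 41.7). Ccr6 (52.7 ± 16.6), Cxcr4 (33.3 ± 11.6) and Ccr9 (1.89 ± 0.275) had the lowest levels per length. In SAT the order of mean levels per length was Cxcr3 (643 ± 170, n = 3), Cxcr6 (431 ± 142), Ccr7 (331 ± 162), Ccr8 (229 ± 64.3), Ccr2 (174 ± 52.4), Ccr4 (169 ± 17.7), Ccr6 (53.9 ± 26.9), Cxcr4 (29.4 ± 13.0) and Ccr9 (1.49 ± 0.799). Of these neighbours in SAT only Ccr4 and Ccr6, and Cxcr4 and Ccr9, had ranges that did not overlap.

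Of the summed level per length of the 9 receptors, Ccr7 made up 67.4 ± 3.17% in spleen, 24.0 ± 5.08% in BAT and 16.5 ± 9.42% in SAT. Cxcr3 took 14.8 ± 2.60% in spleen, 25.2 ± 1.90% in BAT and 30.9 ± 6.37% in SAT. The share of Cxcr6 was 2.62 ± 0.445% in spleen, 15.5 ± 6.33% in BAT and 20.6 ± 5.60% in SAT. Ccr8 held 5.79 ± 1.24%, 14.7 ± 1.60% and 11.2 ± 3.81%, and Ccr2 held 0.950 ± 0.323%, 6.03 ± 1.04% and 8.37 ± 2.05%, in the same order of groups. The sum itself was 1258 to 1601 per length in spleen and 1616 to 2196 in fat, so a pool led by 1 receptor in spleen was spread over several in fat.

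**Figure D3:**
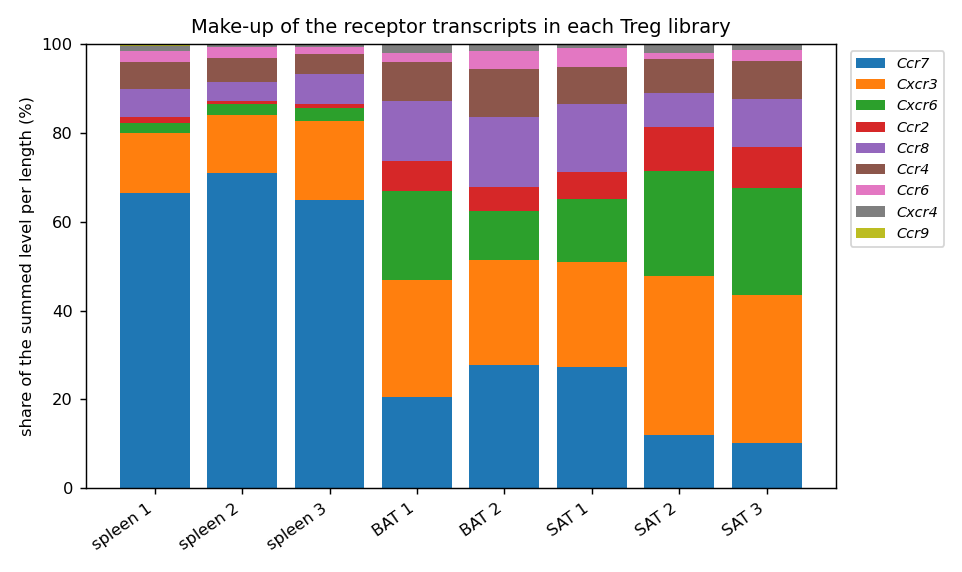
Share of each receptor in the summed level per length of the 9 receptors (%), 1 stacked bar per Treg library. Ccr7 makes up 67.4% on average in the 3 spleen libraries and 24.0% and 16.5% in BAT and SAT, where Cxcr3 and Cxcr6 take larger shares.

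Within fat the receptors did not vary alike from library to library. Ccr2 and Cxcr3 ran in the order SAT 2, SAT 3, BAT 1, SAT 1, BAT 2 from highest to lowest, and Cxcr6 differed from it only by the exchange of SAT 2 and SAT 3. Ccr7 ran SAT 1, BAT 2, BAT 1, SAT 2, SAT 3, with a highest to lowest ratio of 2.43, and Ccr6 ran SAT 1, BAT 2, SAT 3, BAT 1, SAT 2, with a ratio of 3.04. Thus SAT 1 and BAT 2, which were low in Ccr2, Cxcr3 and Cxcr6, were high in Ccr7 and Ccr6. For Ccr7, however, BAT 1 (359 CPM) was close to BAT 2 (374 CPM). The summed level of the immediate-early and stress genes was also lowest in SAT 1 and BAT 2 and highest in SAT 2 and SAT 3. Single genes of that list differed. Hspa1a was at 334 to 385 CPM in BAT and 34.0 to 98.1 in SAT, and Zfp36 at 325 to 330 and 426 to 664. The part of these genes in the receptor order was not tested. Tbx21, the T-bet gene, and Klrg1, a terminal differentiation marker, were looked at after their values were seen. Tbx21 stood at 198 and 115 CPM in BAT, 152, 287 and 241 in SAT and 23.9, 9.39 and 21.1 in spleen, and Klrg1 at 381 and 248, 384, 600 and 676, and 49.8, 57.8 and 122. The SAT 2 and SAT 3 libraries were again the highest of the fat libraries for both genes, and BAT 2 was the lowest.

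**Figure D4:**
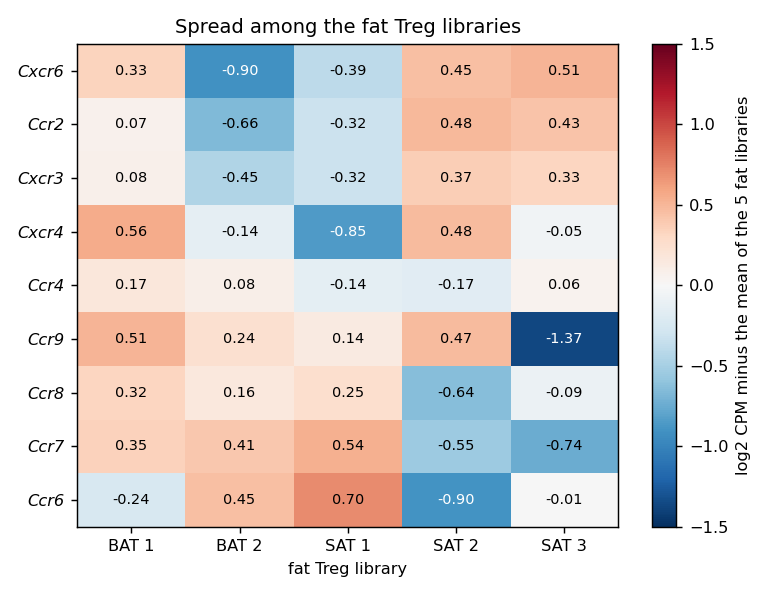
Log2 CPM of each receptor minus its mean over the 5 fat Treg libraries, by library; red is above and blue below that mean. In BAT 2 and SAT 1 Cxcr6 is at -0.90 and -0.39 and Ccr6 at 0.45 and 0.70, and in SAT 2 Cxcr6 is at 0.45 and Ccr6 at -0.90.

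Likeness to other genes was described by Pearson's r of log2 CPM over the 8 libraries, among 8367 genes with a mean of at least 10 CPM. These libraries share their tissue groups and their immediate-early difference, so that many genes follow the same fat against spleen step. Most like Ccr2 were the nuclear receptor Nr4a3 (r = 0.998, with means of 285 CPM in fat and 24.1 in spleen), the stress gene Gadd45b (0.996) and the granule proteoglycan gene Srgn (0.994). For Cxcr6 they were the glutaredoxin gene Glrx (0.995), Fgl2, a secreted protein of Treg cells (0.994, with 391 CPM in fat and 37.7 in spleen) and Chsy1 (0.993). For Cxcr3 they were Polg2 (0.992), Klrg1 (0.991) and Cxcr6 itself (0.989). Ccr4 was most like the intermediate filament gene Vim (0.998), Glud1 (0.997) and Nav2 (0.997).

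Fewer genes came as close to the remaining receptors. Ccr8 was most like Cyp2s1 (r = 0.983 over 8 libraries), the inhibitory receptor gene Tigit (0.974) and Spsb3 (0.970). Cxcr4 was most like Lxn (0.987), Kin (0.983) and the stress transcription factor gene Atf4 (0.982), and Ccr7 was most like Vmn2r97 (0.983), Cyth1 (0.983) and the cannabinoid receptor gene Cnr2 (0.982). An r above 0.95 was reached by 171 genes with Ccr2, 157 with Ccr4, 156 with Cxcr6 and 108 with Cxcr3. It was reached by 21 genes with Ccr7, 20 with Cxcr4 and 16 with Ccr8. Among the receptors themselves r was 0.99 for Cxcr3 and Cxcr6, 0.98 for Ccr2 and Cxcr6, 0.94 for Ccr4 and Ccr8 and -0.89 for Ccr2 and Ccr7.

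The rest of the chemokine receptor family was scanned in the same fit. Of 16 other receptors 8 were tested, of which 5 were higher in fat, 1 was lower and 2 were not called, with a median log2 fold change of 2.39. Ccr3, the eotaxin receptor of eosinophils and type 2 T cells, was at 69.9 ± 15.9 CPM in BAT, 164 ± 55.4 in SAT and 7.92 ± 5.08 in spleen (3.76 ± 0.37, edgeR adjusted p = 4.4e-05). Ccr1, an inflammatory receptor, was at 9.85 ± 0.953, 27.0 ± 3.90 and 0.778 ± 0.587 CPM in the same order (4.36 ± 0.46, edgeR adjusted p = 6.5e-05). Ccrl2, a receptor without signalling of its own, was at 57.5 ± 22.1, 52.3 ± 22.8 and 13.9 ± 4.32 CPM (1.99 ± 0.35, edgeR adjusted p = 0.00259).

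Xcr1, best known from cross-presenting dendritic cells, was at 29.5 and 9.40 CPM in BAT, 5.99, 4.85 and 6.32 in SAT and 3.05, 1.08 and 1.10 in spleen (2.57 ± 0.55, edgeR adjusted p = 0.0094). The libraries with the most dendritic cell transcript were SAT 3 (54.3 CPM) and BAT 1 (51.8), where Xcr1 stood at 6.32 and 29.5 CPM. The part of such cells was not tested. Cxcr5, the follicular receptor, fell by 2.11 ± 0.34 on the log2 scale (edgeR adjusted p = 0.00158). Its CPM was 22.1 ± 17.8 in BAT and 28.7 ± 13.5 in SAT, against 108 ± 7.81 in spleen. Ccr10, a skin-homing receptor, was at 18.3 ± 5.91, 5.80 ± 4.35 and 2.21 ± 1.96 CPM in BAT, SAT and spleen and did not pass (2.20 ± 0.80, edgeR adjusted p = 0.0951). Cx3cr1, the fractalkine receptor, failed the filter and stood at 14.2 CPM in BAT 1 and 0.895 in BAT 2.

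Ligands of the 9 receptors were scarce in these cells. Of 16 ligand genes 5 were tested and 1 was higher in fat, Cxcl10, a ligand of Cxcr3, at 26.4 ± 18.4 CPM in BAT, 12.3 ± 4.28 in SAT and 4.47 ± 3.32 in spleen (2.00 ± 0.52, edgeR adjusted p = 0.0254). Ccl1, a ligand of Ccr8, was at 27.2 ± 7.05 CPM in BAT, 8.99 ± 8.52 in SAT and 5.93 ± 5.88 in spleen and was not called (edgeR adjusted p = 0.278). Ccl2, Ccl7, Ccl12, Ccl17, Ccl19 and Ccl21a had no count in any of the 5 fat libraries, where a count of 0 allows up to 0.558 to 0.671 CPM per library from counting error alone.

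Of 20 genes of receptor signalling 19 were tested, with 8 higher in fat, 1 lower and a median log2 fold change of 0.16. Rgs2, which speeds the shut-off of G protein signals, was at 249 ± 73.1 CPM in BAT, 189 ± 58.1 in SAT and 11.8 ± 1.56 in spleen (4.20 ± 0.26, edgeR adjusted p = 8.13e-07). Its relatives Rgs16 (1.89 ± 0.22, edgeR adjusted p = 0.000132) and Rgs1 (0.72 ± 0.14, edgeR adjusted p = 0.00432) also rose. Dock2, the activator of Rac in migrating lymphocytes, rose by 0.47 ± 0.08 (edgeR adjusted p = 0.00214), and Plcb2, a phospholipase downstream of G proteins, fell by 0.70 ± 0.14 (edgeR adjusted p = 0.00696).

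Of 15 other homing genes, all tested, 8 were higher in fat and 1 was lower, with a median log2 fold change of 0.45. Itgb1, the beta-1 integrin chain, was at 1538 ± 16.6 CPM in BAT, 1220 ± 240 in SAT and 353 ± 89.5 in spleen (1.96 ± 0.17, edgeR adjusted p = 1.48e-05). Cd44, the hyaluronan receptor of activated T cells, rose by 1.17 ± 0.10 (edgeR adjusted p = 1.06e-05), and the gut-homing receptor gene Gpr15 by 1.70 ± 0.19 (edgeR adjusted p = 7.78e-05). Between BAT and SAT 0 genes of these 4 lists were called.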

How the data were processed

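Treg cells were sorted repeatedly into lysis buffer and sequenced after Smart-seq2 amplification and Nextera XT tagging, per the labels' protocols. The deposited values are raw counts per gene, for which the authors used STAR 2.7.3a and featureCounts on mm10, per the submitters' processing notes. Which annotation release was used, whether strand was counted and how multiply mapped reads were treated is not given in the sources used here. Smart-seq2 has no molecular identifiers, so counts include amplification copies and the floor of 3 counts covers counting error only.

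The 3 Treg groups were fitted together in edgeR 4.0.16 (R 4.3.3) with filterByExpr, TMM factors and the robust quasi-likelihood F test, adjusted by Benjamini-Hochberg over 13847 genes at 0.05. The residual degrees of freedom were 5. Fat is the mean of BAT and SAT on the log2 scale. Each SE is the absolute log2 fold change divided by the root of F. Group values are means with SD over libraries. Levels per length used the union of GENCODE M21 exons.

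Members and lists were chosen with earlier results of these data known. Besides the 9 receptors, the text names up to 4 called genes by p from each list (other receptors, ligands, signalling, homing), every other receptor with a mean of at least 5 CPM in a group, and the 3 most alike genes (prior count 2; predicted, ribosomal and receptor segment genes left out) of each receptor called. Ligands with no count in fat, Ccl1, Tbx21 and Klrg1 were named after their values were seen. Results for some genes of these lists are not reported here.

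On simulated counts with 200 changed genes in the comparison of fat with spleen, over 13847 genes, 52% of changes of log2 1 and 83% of log2 2 were recovered, and 5.59% of calls were false. This was a single run with changes placed only in better counted genes and alike in BAT and SAT. Fewer genes were changed than were called in the data, so these rates need not hold there. Replicates differed beyond counting noise in all 7 pairs (chi-square per degree of freedom 7.02 to 13.7). Alternatives were DESeq2 1.42.0, RLE factors, no filter, a replicate block, a fit without robust estimation, only the groups compared, and each library left out.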

Additional observations from a re-analysis of the deposited data

How the results depend on the processing

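Call and direction were both kept in 116 of 126 combinations of receptor and setting for fat against spleen. They were kept in 117 for BAT against spleen, 114 for SAT against spleen and 121 for BAT against SAT. In BAT against SAT, 4 combinations turned direction and 1 gained a call. No direction turned in the contrasts with spleen under the settings run. Between BAT and SAT, with each library left out, the log2 fold change turned for Cxcr4 without BAT 1 (range -0.10 to 0.64), for Ccr6 without BAT 2 or SAT 2 (range -0.32 to 0.53) and for Cxcr6 without BAT 2 (range -1.15 to 0.073). The cause was not tested. DESeq2 also called Ccr6 (adjusted p = 0.00664) and Ccr9 (adjusted p = 0.0395) in fat against spleen. Without a filter on low counts edgeR called Ccr6 (adjusted p = 6.54e-05) and lost Ccr7 (adjusted p = 0.0963). In BAT and SAT, DESeq2 (adjusted p = 0.0359 and 0.0298) and no filter (0.00139 and 0.000645) also called Ccr6. In SAT, Ccr7 was lost with no filter (0.1), DESeq2 called Ccr9 (0.0329) and Ccr6 passed without SAT 2 (0.0287). Ccr6 also passed in fat with fat as 1 group (0.0435). With each library left out in turn, receptors called ran from 6 to 8 for fat, 4 to 7 for BAT, 6 to 7 for SAT and 0 to 1 for BAT against SAT. Genes called ran from 914 to 1862 (1739 with all libraries) for fat, with 1158, 914 and 1056 without spleen 1, 2 and 3. They ran from 634 to 1304 for BAT (1215), with 634 and 802 without spleen 2 and 3, and from 640 to 1428 for SAT (1155), with 693, 641 and 640 without SAT 2, SAT 3 and spleen 2. For BAT against SAT they ran from 0 to 14 (0), with 14 and 1 without SAT 1 and SAT 2, and no filter gave 136 and DESeq2 90. With the replicate number as a replicate block, genes called fell to 784 for BAT against spleen and were 1 for BAT against SAT, and Cxcr4 was lost in BAT (adjusted p = 0.0527). A lone BAT library was assumed to vary like the other groups. Libraries with the same number did not deviate together (r from -0.09 to 0.04). These deviations were taken from the means of very small groups, so they cannot show whether libraries with the same number share an animal. With the longest transcript as length, chosen after seeing the data, the order was kept in BAT and SAT, and in spleen Ccr4 and Ccr8, and Ccr6 and Cxcr6, changed places. Ccr9 and Cxcr4 rested on the fewest counts of the 9 receptors, from 13 and 24 per library.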
